A study of Gallus gallus with 6 samples.

Results

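A set of genes of the endothelial surface and junctions, with some of the endothelial cell interior, was examined in chick wing explants cultured with an inhibitor of Fgf signalling. The account is of 8 genes, out of 24981 listed in the tables: CDH5, CLDN5, PECAM1, CD93, VWF, DIPK2B, AFAP1L1 and KLHL4. They were chosen by name from a larger number of endothelial genes in the tables, and CDH5, CD93, VWF, DIPK2B, AFAP1L1, KLHL4 and CLDN5 were taken largely because little of their RNA is left after treatment, with PECAM1 set against them. Their differences between the treatments therefore chose them and are described here with no test. As written above, 6 are named in the tables, CLDN5 is written in lower case, and PECAM1 carries no name and was found through the NCBI gene number in its description.

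The explants were the posterior part of wild-type wing buds at Hamburger-Hamilton stage 20 (HH20), with the overlying ectoderm and apical ridge, embedded in growth-factor-reduced Matrigel. They were cultured for 48 h either with SU5402 at 5 µM, added at 0 h, or with DMSO, its solvent, alone. For each treatment there are 3 libraries, each made from pooled explants of 1 replicate experiment, and entire explants were sequenced although the cell type is labelled as mesenchyme. SU5402 was made as an Fgf receptor inhibitor and also inhibits the Vegf receptor KDR in biochemical assays, so with 1 inhibitor at 1 dose the receptors it acts on here cannot be told apart.

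Blood vessels are lined by endothelial cells, and the early limb bud carries a plexus of them that is remodelled as the limb grows. Neighbouring endothelial cells are held together by adherens junctions built on VE-cadherin, by tight junctions that contain claudin-5, and by PECAM1, and each of these proteins binds its own kind on the next cell. Vegf acting through KDR, with the transcription factors of the Ets and SoxF families, is known to drive the genes that give an endothelial cell its identity.

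Counts on genes ranged from 25849833 to 44261768 reads in the DMSO libraries and from 29390751 to 37373688 in the SU5402 libraries. Every gene of the Fgf target list that was tested, 5 of 5, was down-regulated with SU5402, among them MKP3, a phosphatase gene induced by Fgf signalling (log2 fold change -2.75, SE 0.10, limma with Benjamini-Hochberg adjustment, adjusted p = 0.000181). SPRY3, also of this list, was tested through its DMSO libraries alone, having no read with SU5402. Over all 16324 genes tested, 741 were lower with SU5402 and 1022 were higher when both an adjusted p below 0.05 and a change beyond 2-fold were required, which is 4.54% and 6.26%. The median log2 fold change of all genes was 0.01. Limb mesenchyme markers led the marker lists in both treatments. Their summed FPKM (fragments normalized between libraries and scaled by gene length) was 1156 to 1243 with DMSO and 860 to 958 with SU5402. Of the 7 genes in that list 1 was called lower, MSX1, and its call was lost when any library but SU5402 replicate 1 was left out. By adjusted p alone 3 were lower and 1 higher, beside 16.0% and 14.4% of all genes tested. HAND2 (-0.81, SE 0.09, limma adjusted p = 0.0027) and PRRX1 (-0.40, SE 0.06, adjusted p = 0.0083) were lower by less than 2-fold. PDGFRA was higher by less than 2-fold (0.23, SE 0.06, adjusted p = 0.034). In DMSO-treated explants the 8 endothelial genes together reached 191 to 197 FPKM, so RNA of endothelial genes was present in these libraries beside that of the mesenchyme.

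With SU5402, CDH5, CD93, VWF, DIPK2B, KLHL4, CLDN5 and AFAP1L1 were left at between 0.529% and 9.31% of their DMSO means, and PECAM1 at 56.7%. The 7 genes other than PECAM1 were 10.7-fold to 189.1-fold lower. Their median log2 fold change was -5.81, and that of PECAM1 was -0.82. For all 8 genes the highest SU5402 library lay below the lowest DMSO library, which also holds for 25.6% of all genes tested. A log2 fold change beyond 10-fold in this direction was found for the same 7 genes and for 0.692% of all genes tested. Since the genes were taken for this difference, nothing is read from either count.

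**Figure D1:**
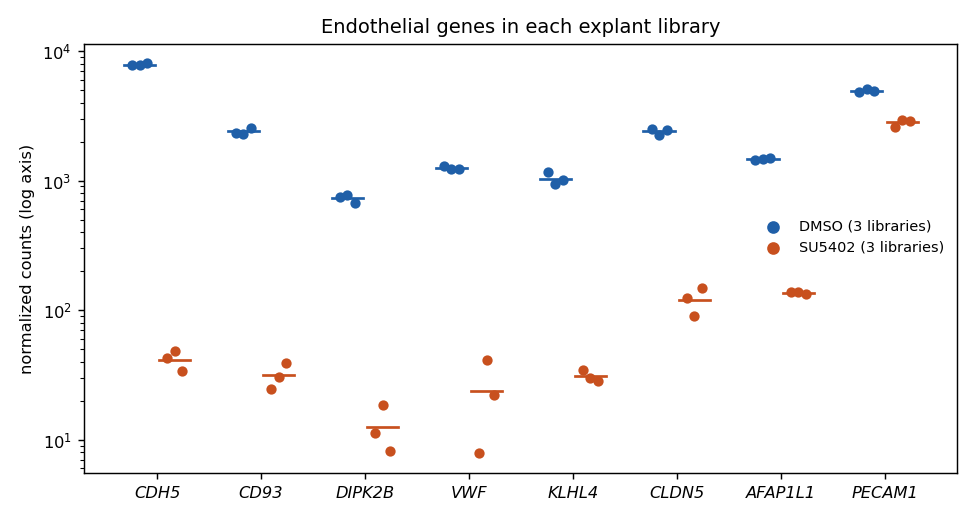
Normalized counts (reads divided by the library's size factor, log axis) of the 8 genes in each of the 3 DMSO and 3 SU5402 libraries; points are libraries and lines are group means. The SU5402 libraries of CDH5 lie between 33.8 and 48.2 and those of PECAM1 between 2588 and 2948.

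CDH5 encodes VE-cadherin, the cadherin of endothelial adherens junctions. It lies on chromosome 11 at 11518646 to 11547898, on the minus strand, in the GRCg6a build of the chicken genome (ENSGALG00000032349). Its normalized counts, which are reads divided by a size factor for the library, were 7751, 7790 and 8007 in the DMSO libraries and 42.5, 48.2 and 33.8 in the SU5402 libraries. All 3 SU5402 libraries were far below all 3 DMSO libraries and close to each other. The means were 7849 ± 138 and 41.5 ± 7.22 (SD, n = 3), a 189.1-fold difference and a log2 fold change of -7.54 (SE 0.13). The counts with SU5402 rest on 38, 55 and 37 reads. CDH5 had the highest level per length of the 8 genes with DMSO, 51.5 ± 0.906 FPKM, and was at 0.273 ± 0.0474 FPKM with SU5402.

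CLDN5 encodes claudin-5, the main claudin of endothelial tight junctions, which seal the gap between cells. It is a gene without introns in this annotation, on chromosome 15 at 996735 to 998492 on the minus strand (ENSGALG00000001621). Normalized counts were 2488, 2228 and 2458 with DMSO, and 123, 89.3 and 149 with SU5402. The treated libraries were spread more widely than those of CDH5 in absolute terms but stayed far below the controls. The means were 2391 ± 142 and 120.5 ± 29.9 (SD, n = 3), 19.8-fold apart, with a log2 fold change of -4.33 (SE 0.19). Of the 2 junction genes taken for their loss, CLDN5 thus kept 5.04% ± 1.25 of its DMSO mean and CDH5 0.529% ± 0.092.

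PECAM1 encodes an immunoglobulin-superfamily protein of the endothelial cell border, and in mammals it is also found on platelets and leukocytes. The gene lies on chromosome 18 at 6838801 to 6867521 on the minus strand (ENSGALG00000046125). Its normalized counts were 4861, 5086 and 4888 with DMSO and 2588, 2948 and 2883 with SU5402. The groups did not overlap. The means were 4945 ± 123 and 2806 ± 192 (SD, n = 3), which is 1.76-fold lower and a log2 fold change of -0.82 (SE 0.07). PECAM1 is the only one of the 8 genes that was less than 2-fold lower.

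CD93 encodes a transmembrane receptor with a C-type lectin-like domain that takes part in adhesion of endothelial cells. It too has no intron in the annotation, and lies on chromosome 3 at 3329006 to 3331372 on the plus strand (ENSGALG00000008359). In the DMSO libraries its normalized counts were 2325, 2305 and 2562, and in the SU5402 libraries 24.6, 30.6 and 39.3. Control and treated libraries were again widely separated. The means were 2397 ± 142 and 31.5 ± 7.38 (SD, n = 3), 76.0-fold apart, and the log2 fold change was -6.23 (SE 0.17).

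VWF encodes von Willebrand factor, a secreted glycoprotein that endothelial cells store in Weibel-Palade bodies and release in haemostasis. It is the longest of the 8 genes, spanning 141928 bases of chromosome 1 from 74541146 to 74683073 on the minus strand (ENSGALG00000017272), with 8948 bases of exon. Normalized counts were 1295, 1230 and 1232 with DMSO and 7.83, 41.2 and 21.9 with SU5402. VWF was the least even of the 8 genes among treated libraries. Replicate 1 had 7 reads (95% exact Poisson interval 2.81 to 14.4) and replicate 2 had 47 (34.5 to 62.5), so those libraries differed by more than counting error, which is all that such an interval covers. The means were 1253 ± 36.8 and 23.6 ± 16.7 (SD, n = 3), 53.0-fold apart, and the log2 fold change was -5.94 (SE 0.57), between -6.46 and -5.33 when each library was left out in turn.

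DIPK2B, described in the tables by its human name CXorf36, belongs to a family of divergent protein kinase domain proteins. It lies on chromosome 1 at 112117781 to 112133306 on the plus strand (ENSGALG00000016215). Normalized counts were 747, 774 and 667 with DMSO and 11.2, 18.4 and 8.23 with SU5402. The few reads behind the treated values, 10, 21 and 9, leave their order undecided, but none came near the controls. The means were 729 ± 55.5 and 12.6 ± 5.23 (SD, n = 3), 57.9-fold apart, with a log2 fold change of -5.81 (SE 0.28).

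KLHL4 and AFAP1L1 encode proteins of the cell interior, not of its surface: KLHL4 is a kelch-like protein with a BTB domain and AFAP1L1 an adaptor that binds actin filaments. KLHL4 lies on chromosome 4 at 8078253 to 8111548 (ENSGALG00000006877) and AFAP1L1 on chromosome 13 at 9243530 to 9261669 (ENSGALG00000039628), both on the minus strand. For KLHL4 the normalized counts were 1160, 939 and 1006 with DMSO and 34.7, 29.8 and 28.3 with SU5402, giving a log2 fold change of -5.02 (SE 0.12). For AFAP1L1 they were 1437, 1457 and 1487 with DMSO and 137.7, 137.5 and 132.6 with SU5402, giving -3.42 (SE 0.05). AFAP1L1 was the most even of the 8 genes among treated libraries, and of the 7 genes it kept the largest share, 9.31% ± 0.198 of its DMSO mean, against 2.99% ± 0.322 for KLHL4 (SD, n = 3).

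**Figure D2:**
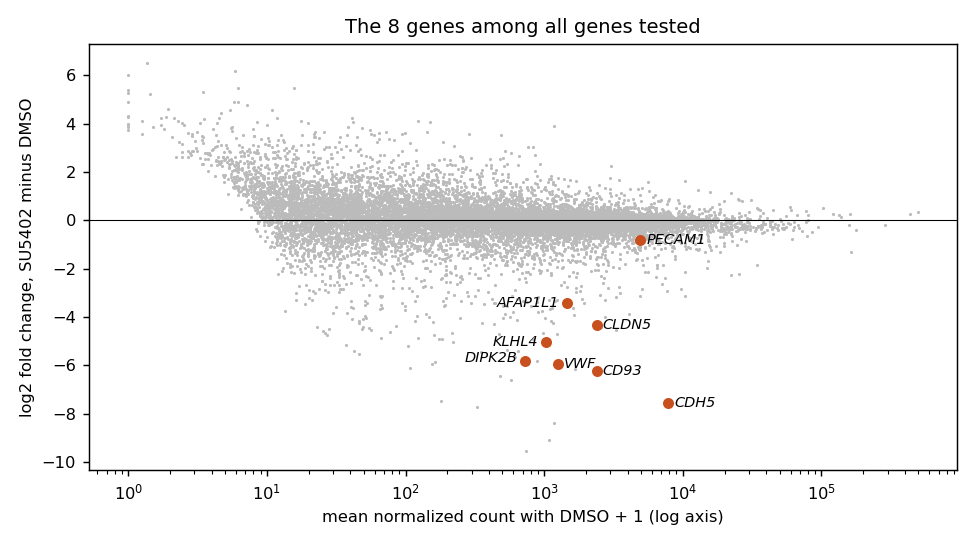
Mean normalized count with DMSO plus 1 (x axis, log scale) against the log2 fold change (SU5402 minus DMSO, y axis) of the 16324 genes tested; grey points are all genes and the labelled points the 8 endothelial genes. CDH5 sits at -7.54 with the highest DMSO count of the 8, and PECAM1 at -0.82.

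On the FPKM scale, which allows levels of different genes to be set side by side, the order with DMSO was CDH5, CLDN5 (40.5 ± 2.41), PECAM1 (38.5 ± 0.955), CD93 (30.2 ± 1.79), AFAP1L1 (11.7 ± 0.204), DIPK2B (9.69 ± 0.737), KLHL4 (8.30 ± 0.910) and VWF (4.17 ± 0.122). Libraries of CLDN5 and PECAM1 overlapped, as did those of DIPK2B and KLHL4, and the other neighbours in this order did not. With SU5402 the order was PECAM1 (21.8 ± 1.49), CLDN5 (2.04 ± 0.507), AFAP1L1 (1.09 ± 0.0232), CD93 (0.397 ± 0.0929), CDH5 (0.273 ± 0.0474), KLHL4 (0.248 ± 0.0267), DIPK2B (0.167 ± 0.0694) and VWF (0.0787 ± 0.0556). From CD93 downwards each gene overlapped the next, so neighbours in the last 5 places are not separated. PECAM1, which stood below CDH5 with DMSO, was thus the most highly expressed with SU5402, and CDH5 went from the first place into this lower group.

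The ratio of each gene to PECAM1 was taken within each library, where the size factor cancels. CDH5 had 159.4, 153.2 and 163.8 normalized counts for every 100 of PECAM1 in the DMSO libraries and 1.64, 1.63 and 1.17 in the SU5402 libraries. In control explants CDH5 counts thus exceeded those of PECAM1, and in treated explants they were a small fraction of them. With SU5402 the mean ratio to PECAM1 was 107-fold lower for CDH5, 43.4-fold for CD93, 33.0-fold for DIPK2B, 30.9-fold for VWF, 18.9-fold for KLHL4, 11.2-fold for CLDN5 and 6.08-fold for AFAP1L1. Summed over these 7 genes there were 354, 329 and 356 normalized counts per 100 of PECAM1 with DMSO and 14.7, 13.4 and 14.3 with SU5402. PECAM1 accordingly made up 21.9% to 23.3% of the normalized counts of all 8 genes in control explants and 87.1% to 88.2% in treated ones. The median difference of the log2 fold changes of the 7 genes from that of PECAM1 was -4.99. In entire explants, fewer endothelial cells and less RNA of these genes per cell cannot be told apart.

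**Figure D3:**
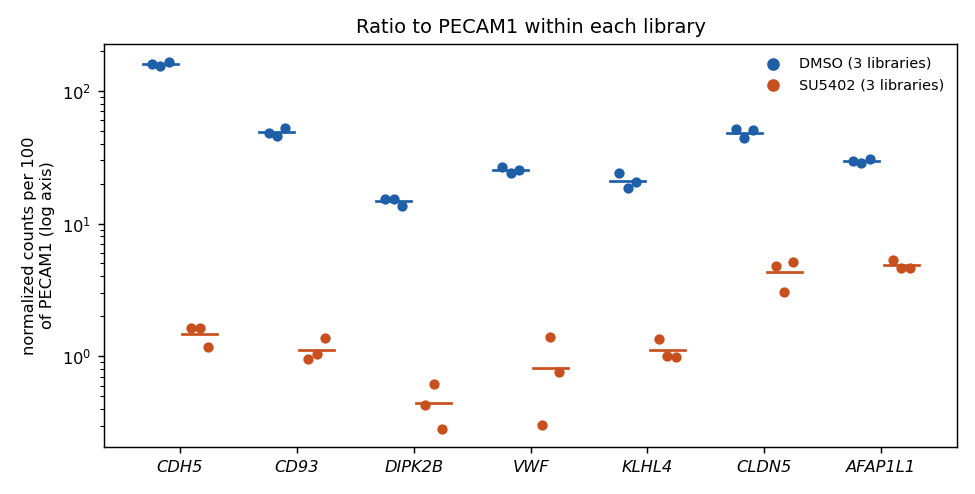
Normalized counts of 7 genes per 100 normalized counts of PECAM1 (log axis) in each of the 3 DMSO and 3 SU5402 libraries; points are libraries and lines are group means. The CDH5 ratio is 153.2 to 163.8 with DMSO and 1.17 to 1.64 with SU5402, and no gene's groups overlap.

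Other endothelial genes, which were not among the 8, were then examined in 2 lists. Both lists were drawn up with earlier results of these data known, so their counts are a description and not an independent check. Of 31 other genes of the endothelial surface, 23 were matched in the tables and all 23 passed the filter on low counts. SU5402 down-regulated 17 of them and up-regulated 0, with a median log2 fold change of -2.97, beside 4.54% and 6.26% of all genes tested. For 2 of the 17, ROBO4 and PCDH12, no SU5402 library reached the 10 normalized counts of the filter, so they were tested only through the group in which they are high. STAB2, also of the 17, had an SU5402 library below 10, at 7.31. Without its DMSO libraries it would not have passed the filter. None of the 23 was higher at an unadjusted p below 0.05 in limma, and 0 were called higher with edgeR or DESeq2. PROCR, the protein C receptor, was the weakest of the 17 calls and was lost when either of the DMSO replicates 1 and 2, or replicate 3 of SU5402, was left out, leaving 16. The range ran from -6.60 for PCDH12, a protocadherin of endothelial junctions, to 0.32 for LYVE1, a hyaluronan receptor of lymphatic endothelium and macrophages that did not pass the test.

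PLVAP, which forms the diaphragms of endothelial fenestrae and caveolae, had the highest level of this list with DMSO. Its normalized counts were 3724, 3546 and 3205 with DMSO and 480, 398 and 410 with SU5402 (log2 fold change -3.02, SE 0.10, limma adjusted p = 0.000143). KDR, the main signalling receptor for Vegf, had 2883, 2730 and 2553 with DMSO and 151, 161 and 199 with SU5402 (-4.00, SE 0.12, adjusted p = 0.000123). Both genes were lower in every treated library than in any control library, and so were CD34, a sialomucin of endothelial and progenitor cells (-4.26, SE 0.21), TIE1, an endothelial receptor tyrosine kinase (-2.97, SE 0.17), APLNR, the apelin receptor (-1.85, SE 0.17), and ENG, a co-receptor for TGF-beta ligands (-1.16, SE 0.11). These 4 had limma adjusted p-values from 0.000318 to 0.0016.

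The 6 surface genes that did not pass were JAM2, JAM3, S1PR1, CALCRL, STAB1 and LYVE1. JAM3, a junctional adhesion molecule found on several cell types, had 3505, 3096 and 3310 normalized counts with DMSO and 3240, 3351 and 2883 with SU5402. Its groups overlapped, with a log2 fold change of -0.07 (SE 0.09, limma adjusted p = 0.603). S1PR1, a receptor for sphingosine-1-phosphate, had 1319, 1206 and 1160 with DMSO and 819, 709 and 773 with SU5402. Its groups did not overlap and its adjusted p was 0.0042, but the change was under 2-fold (-0.68, SE 0.08), as for CALCRL, the calcitonin receptor-like receptor (-0.92, SE 0.08, adjusted p = 0.0013).

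**Figure D4:**
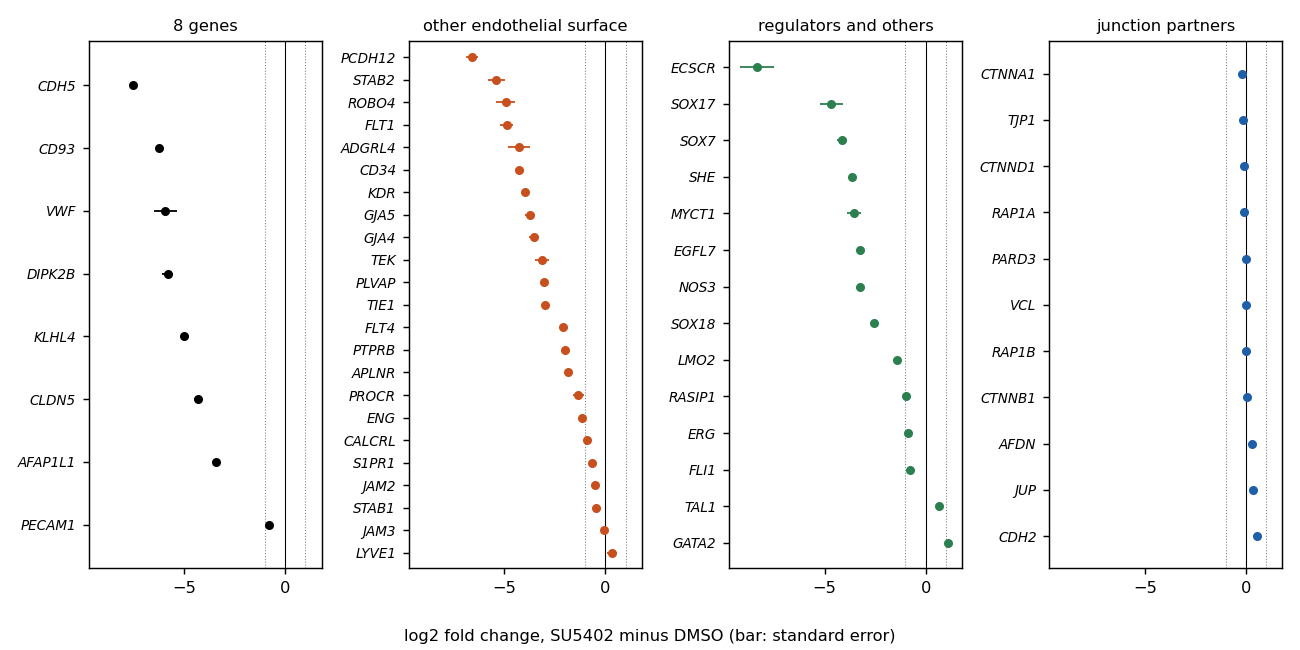
Log2 fold change (SU5402 minus DMSO, x axis) of the 8 genes and of the 23 other endothelial surface genes, 14 regulators and further endothelial genes and 11 junction partners that were tested, 1 gene per line; bars are standard errors and dotted lines mark a 2-fold change. The junction partners lie between -0.19 and 0.53, and the endothelial lists run from -8.37 to 1.13.

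Transcription factors, signalling proteins and further endothelial genes, some of them secreted or at the membrane, formed the other list, with 14 of 17 matched and tested. SU5402 down-regulated 9 of the 14 and up-regulated 1, beside 4.54% and 6.26% of all genes tested. The median log2 fold change of the 14 was -2.90. SOX18, a SoxF transcription factor of vascular and lymphatic endothelium, had 1441, 1387 and 1345 normalized counts with DMSO and 228, 221 and 253 with SU5402 (-2.57, SE 0.07, limma adjusted p = 0.000109). SOX7, of the same family, had 685, 583 and 628 with DMSO and 25.7, 31.5 and 52.1 with SU5402 (-4.14, SE 0.26, adjusted p = 0.000611). EGFL7, a secreted factor of endothelial cells, and SHE, an SH2-domain adaptor, were down-regulated as well (-3.24, SE 0.08, and -3.62, SE 0.10). So was LMO2, a bridging factor of blood and endothelial transcription complexes (-1.42, SE 0.16, limma adjusted p = 0.0029). ECSCR, a small endothelial membrane protein, is also among the 9, but it was tested only through the DMSO libraries, in which it is high. It had 1336, 1072 and 1123 normalized counts with DMSO and 8.95, 3.50 and 0 with SU5402, the latter from 8, 4 and 0 reads. Its log2 fold change ran from -9.11 to -7.45 as single libraries were left out. SOX17 and MYCT1, also among the 9, had SU5402 libraries below 10 normalized counts. Without their DMSO libraries, in which they are high, they would not have passed the filter.

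The Ets factors ERG and FLI1, which are known to bind many endothelial genes, CDH5 among them in mammals, kept more of their RNA. ERG had 2545, 2426 and 2845 normalized counts with DMSO and 1261, 1582 and 1428 with SU5402, and FLI1 had 4608, 4210 and 4000 with DMSO and 2424, 2638 and 2438 with SU5402. Neither pair of groups overlapped, and neither gene reached a 2-fold change: the log2 fold change was -0.87 for ERG (SE 0.11, limma adjusted p = 0.0044) and -0.77 for FLI1 (SE 0.08, adjusted p = 0.0022). Both factors are also made by other cells, FLI1 by blood cells and ERG by early cartilage. RASIP1, a regulator of small GTPase signalling in endothelium, was in the same range (-0.95, SE 0.06, adjusted p = 0.000567). GATA2, a factor of blood progenitors as well as endothelium, rose from 369, 440 and 304 to 889, 806 and 728 (1.13, SE 0.16, adjusted p = 0.0058), a call that was lost without DMSO replicate 3 (0.996). TAL1, another factor shared with blood, was at 159% of its DMSO mean (0.65, SE 0.15, adjusted p = 0.025) and did not reach 2-fold.

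Over both lists together, 14 of the 37 genes tested kept less than 10% of their DMSO mean and 10 kept 10% to 40%. Among the 14, ECSCR, PCDH12 and ROBO4 were tested only through the DMSO libraries, in which they are high. STAB2, SOX17 and MYCT1 also had SU5402 libraries below 10 normalized counts. Without their DMSO libraries, in which they are high, these too would not have passed the filter. Of all genes tested, 0.692% had a log2 fold change beyond 10-fold in this direction. Another 9 kept 40% to 75%, the range in which PECAM1 lay at 56.7% ± 3.89 (SD, n = 3), and 4 kept more than 75%. The 9 were PROCR, ENG, RASIP1, CALCRL, ERG, FLI1, S1PR1, JAM2 and STAB1. Nearest to PECAM1 in the share kept were FLI1 at 58.5%, ERG at 54.6%, CALCRL at 52.6% and RASIP1 at 51.9%. Of the 8 genes, CDH5, CD93, DIPK2B, VWF, KLHL4, CLDN5 and AFAP1L1 would fall in the first of these ranges. For the ranges above 10% the share of all genes tested is not given here, so nothing is read from those counts.

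A further list held proteins that bind cadherins or junctions inside the cell and that most cell types make. It also held CDH2, which encodes N-cadherin. Of these 12 junction partners 11 were tested, with a median log2 fold change of 0.01. With limma, edgeR or DESeq2, 0 were called in either direction. Over all genes tested, limma called 4.54% lower and 6.26% higher, so few calls would fall among 11 genes and nothing is read from the 0. At an unadjusted p below 0.05 in limma 1 was lower and 3 were higher. CTNNB1, which encodes beta-catenin, had 41734, 39709 and 39662 normalized counts with DMSO and 42460, 43104 and 42430 with SU5402 (0.08, SE 0.05, limma adjusted p = 0.303). CTNNA1, encoding alpha-catenin, had an adjusted p of 0.038 at a log2 fold change of only -0.19 (SE 0.05). JUP, encoding plakoglobin, and CDH2 were slightly higher at an adjusted p below 0.05, the further of them being CDH2 at 0.53 (SE 0.07). By adjusted p alone, 16.0% of all genes tested were lower and 14.4% higher.

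Relatives of CLDN5, DIPK2B, AFAP1L1 and KLHL4 gave another comparison. None was listed for CDH5, VWF or PECAM1, and those listed for CD93 were not matched. Of 27 listed relatives, 22 were matched and 15 passed the filter. Of the 15, 0 were called lower and 3 higher in limma, edgeR and DESeq2 alike. Over all genes tested, limma called 4.54% lower and 6.26% higher, so few calls would fall among 15 genes and nothing is read from the 0. At an unadjusted p below 0.05 in limma, 4 were lower and 6 higher. The 3 that rose are all claudins. CLDN3, a claudin of epithelia, had 1205, 1073 and 802 normalized counts with DMSO and 2403, 2447 and 2450 with SU5402 (1.26, SE 0.16, limma adjusted p = 0.0041). CLDN10 rose from 54.3, 30.6 and 34.3 to 156, 160 and 93.3 (1.76, SE 0.31, adjusted p = 0.012). CLDN16 rose from 0, 0 and 4.28 to 17.9, 11.4 and 15.5, few reads in all. It was tested only through the SU5402 libraries, in which it is high, and its call was lost when most single libraries were left out. CLDN1, which had the highest level of the relatives with DMSO at 67.0 FPKM, was higher by less than 2-fold (0.67, SE 0.11, limma adjusted p = 0.011). CLDN12 was lower (-0.27, SE 0.07, adjusted p = 0.038), and CLDN11, CLDN19 and CLDN20 had adjusted p-values above 0.05. DIPK2A (-0.44, SE 0.09), AFAP1 (-0.60, SE 0.07) and KLHL5 (-0.35, SE 0.06), relatives of DIPK2B, AFAP1L1 and KLHL4, were lower by less than 2-fold. Others of these families had positive values under 2-fold, at 0.82 for DIPK1A (SE 0.14, limma adjusted p = 0.0105), 0.36 for DIPK1B (SE 0.09, adjusted p = 0.036), 0.55 for DIPK1C (SE 0.33, adjusted p = 0.26) and 0.18 for AFAP1L2 (SE 0.10, adjusted p = 0.22).

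Markers of blood and of other vessel cells were measured because PECAM1 and several of the listed genes are not made by endothelium alone. In what follows a gene rose or fell only if it was called, with the 2-fold limit. Of 9 macrophage genes tested, 3 rose (CSF1R, SPI1 and C1QC). The summed FPKM of the list was 14.7 to 17.3 with DMSO and 26.6 to 33.2 with SU5402. C1QC lost its call without DMSO replicate 2 or SU5402 replicate 3. Of 6 thrombocyte genes, GP9 and F13A1 rose and ITGB3, which other cells also make, fell, and the summed FPKM was 29.9 to 32.4 and 17.8 to 20.8. Without ITGB3 the other 5 summed to 7.27 to 7.69 with DMSO and 9.78 to 12.2 with SU5402, so the lower sum rests on that gene. GP9 was tested only through the SU5402 libraries, in which it is high. F13A1 lost its call without any one library other than DMSO replicate 2. Among 5 red blood cell genes tested 4 rose, with a summed FPKM of 154 to 197 and 570 to 855, while HBBA was at 0 in all 6 libraries. In the mural list, of the cells that wrap vessels, 1 of 6 genes rose, RGS5, whose call was lost without DMSO replicate 3, SU5402 replicate 1 or SU5402 replicate 3, and the summed FPKM was 52.9 to 59.8 and 57.2 to 64.7. No other marker of these lists that was matched was at 0 in every library. Beside the calls in these lists, 4.54% of all genes tested fell and 6.26% rose. By adjusted p alone, 6 macrophage, 3 thrombocyte, 4 red blood cell and 2 mural genes were higher. In the same way 1 thrombocyte and 1 mural gene were lower, beside 14.4% of all genes tested higher and 16.0% lower. The part of these cells in the PECAM1 level was not tested.

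**Figure D5:**
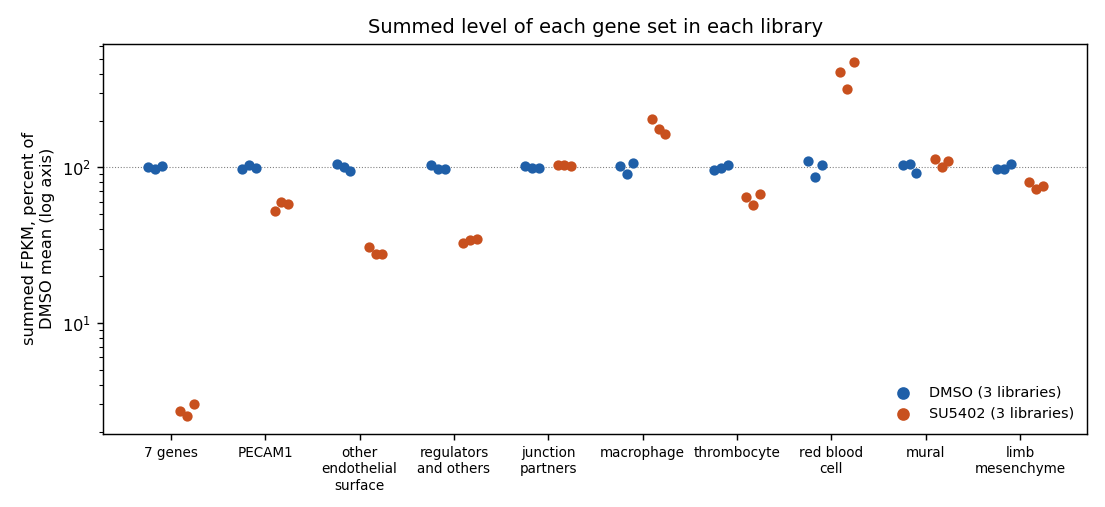
Summed FPKM of each gene set in each library as a percentage of its DMSO mean (log axis); points are the 3 DMSO and 3 SU5402 libraries, and the dotted line marks 100%. The 7 genes stand at 2.52% to 3.02% with SU5402, PECAM1 at 52.3% to 59.6%, macrophage markers at 165% to 206% and red blood cell markers at 319% to 478%.

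The genes whose profile over the 6 libraries was nearest to the mean of the 7 genes were ZNF366, SHH, FK27, DLL4 and ADGRF5, out of 11663 candidates. Likeness was the root mean square difference of the centred log2 values, which was 0.17 for ZNF366 and 0.46 for ADGRF5. The 7 genes were taken for their fall between the same treatments, so this measure puts first the genes with a fall of like size. The log2 fold changes of these 5 genes lay between -5.84 and -4.68, and nothing is read from their nearness. ZNF366 and FK27 were at 0 in all 3 SU5402 libraries, and ADGRF5 had a mean of 2.14 ± 1.94 normalized counts there (SD, n = 3). The distances and ranks of ZNF366, FK27 and ADGRF5 therefore depend on the count of 1 that was added before taking logs. All were tested only through the DMSO libraries, in which they are high. DLL4, a Notch ligand of arterial and tip cells, had a mean of 972 ± 30.3 normalized counts with DMSO and 37.0 ± 2.93 with SU5402 (SD, n = 3). SHH is a signal of the posterior limb mesenchyme and not an endothelial gene. Nearest to PECAM1 were ITGB5, AACS, TMEM135, CEBPG and TPST1, with differences of 0.036 to 0.047. With Pearson's correlation in place of this measure, 0 of the 5 genes were shared in either case.

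The 8 genes lie on 7 chromosomes, VWF and DIPK2B sharing chromosome 1. Of the 16 protein-coding genes tested that flank them, 0 were called with limma, edgeR or DESeq2 in either direction. Limma called 4.54% of all genes tested lower and 6.26% higher, so few calls would fall among 16 genes and nothing is read from the 0. Their log2 fold changes lay between -0.66 and 0.74, with a median of -0.14. At an unadjusted p below 0.05 in limma, 4 of the 16 were lower and 1 was higher. CDH11, a cadherin gene that flanks CDH5 at a distance of 571645 bases, was at -0.52. GRPEL2, which lies 527 bases from AFAP1L1, was at -0.66. The furthest of the flanking genes, PCDH11X, lies 1088334 bases from KLHL4. No flanking gene thus reached a 2-fold change. Unnamed genes on the opposite strand overlap DIPK2B and KLHL4. The one in KLHL4 had a mean of 49.7 normalized counts with DMSO and 7.96 with SU5402, against 1035 and 30.9 for KLHL4 itself. The one in DIPK2B had 18.1 and 12.3, against 729 and 12.6 for DIPK2B itself. Neither was called (limma adjusted p = 0.072 in KLHL4 and 0.81 in DIPK2B). Since the strand setting of the counting is not given in the sources used here, reads of each pair cannot be assigned with certainty. This bears most on the SU5402 level and the fold of DIPK2B.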

How the data were processed

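RNA was measured by poly(A) RNA sequencing in 3 DMSO and 3 SU5402 libraries. Per the labels, the reads were mapped with HISAT2 (version 2.0.5) to GRCg6a, counted with featureCounts (version 1.5.0-p3) and normalized with DESeq2 (version 1.20.0). The signal values that the authors deposited are read counts divided by a size factor for each library, beside the fold changes and p-values of their own comparison, which were not used. In every library 100% of these values were whole reads within a tolerance of 0.01. The FPKM values deposited by the authors are scaled to 1 shared total, 33590126, in all libraries. Whether the counting used strand is not given in the sources used here.

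The 16324 genes that reached 10 normalized counts in 3 or more libraries were tested with limma (version 3.58.1, R version 4.3.3) on log2(normalized count + 1), on which scale fold changes of low genes are understated. Benjamini-Hochberg adjustment was made over these genes, and a call required both an adjusted p below 0.05 and a change beyond 2-fold. All 8 endothelial genes passed the filter, with 3 of 3 DMSO libraries at 10 or more, and VWF and DIPK2B had 2 of 3 SU5402 libraries there. Folds are ratios of group means. Alternatives were edgeR (version 4.0.16) and DESeq2 (version 1.42.0) on the recovered reads, a pseudocount of 0.5, other filters, FPKM plus 0.1, the replicate number as a block, and each library left out in turn. The design had also planned a count of promoter motifs, which was not run because no promoter sequence was used here.

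The 8 genes and all gene lists (endothelial surface, endothelial regulators and further genes, junction partners, relatives, Fgf targets and markers of other cells) were chosen with earlier results of these data known, and 1 gene of the junction partners is not reported here. In each list, full values are given for at most the 8 genes with the highest mean FPKM with DMSO. They are also given for genes called higher in the endothelial lists and among the relatives. In the lists of blood and mural markers, genes called higher are given by name or count only. ECSCR, which is not among those 8 in its list, is also given in full and had the lowest log2 fold change there. Others are named at the ends of a range or for their call. Names came from the tables, and for PECAM1 and other unnamed rows from NCBI gene numbers and the GRCg7b RefSeq gene table, whose coordinates were not used.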

Additional observations from a re-analysis of the deposited data

How the results depend on the processing

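No called result changed direction. The edgeR, DESeq2, pseudocount and filter alternatives left every count of called genes within 1.5 times its value. Without the 2-fold limit, 2607 genes were lower and 2351 higher, in place of 741 and 1022. On log2(FPKM + 0.1) the median log2 fold change of the 7 genes was -4.63 in place of -5.81, and its median difference from PECAM1 was -3.81 in place of -4.99, since the added 0.1 is close to or above the treated FPKM of several of them. With 1 library left out at a time, the genes called lower ranged from 621 to 722 and those higher from 808 to 1000, the surface genes called lower from 16 to 17, the regulators called higher from 0 to 1, the median of the 7 genes from -6.10 to -5.33 and its difference from PECAM1 from -5.25 to -4.57. Surface genes called higher and junction partners called in either direction stayed at 0. Genes called lower in the list of regulators and further endothelial genes stayed at 9. Deviations of same-numbered libraries from their group means had correlations of only 0.0388, 0.0032 and 0.0569 over 16324 genes. Replicates 1 and 3 correlated best with their own number and replicate 2 did not. Whether the numbers mark pairs is not given in the sources used here, and they were not treated as pairs. With a replicate block 677 genes were lower and 878 higher, and surface genes called lower numbered 16. In the list of regulators and further endothelial genes 9 were then called lower and 1 higher. Both medians were -5.81 and -4.99 as before, which is fixed in advance because each replicate number has 1 library of each treatment. With few reads on the treated side, counting error limits, among the 8 genes, the folds of VWF and DIPK2B most, with 7 and 9 reads in their lowest libraries.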
